A study of Mus musculus with 6 samples.

Results

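The 42 genes described here are interferon-stimulated genes and genes of antigen processing, chosen by name, and each was looked up by its gene symbol in the expression table of neonatal mouse cardiomyocytes (CMs). Of these, 39 were listed among the 20066 genes of the table, and 3 (*Oas1a*, *Oas2* and *Psmb9*) were not, which counts as not detected. CMs isolated from C57BL/6 pups of postnatal day 0 to 1 were cultured with the solvent dimethylsulfoxide (DMSO, 3 libraries) or with cell-permeable α-ketoglutarate (αKG, 100 µM per the labels, 3 libraries), each for 96 h, and total RNA was sequenced. All 6 cultures shared the strain, the age, the plating on fibronectin and the treatment time. The study's methods give another concentration for αKG, so the dose is uncertain. CMs came from dissociated hearts without a stated sort, so other cardiac cells can be present, and fewer cells of a type cannot be told apart from less RNA per cell in such bulk samples. The comparison asks which genes differ when the supply of αKG, a Krebs cycle intermediate and cofactor of demethylases, is raised.

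Interferons are secreted when cells sense foreign nucleic acids. Type I interferons act through the receptor chains IFNAR1 and IFNAR2 and the kinases JAK1 and TYK2 on a complex that holds STAT2 and IRF9 and binds the interferon-stimulated response element (ISRE). A further element, the gamma-activated site (GAS), is known for the response to interferon-γ. The genes induced this way encode RNA-binding restriction factors, GTPases, ubiquitin-like modifiers and the machinery that loads peptides on MHC class I. Many cells, cardiac cells included, keep a low tonic level of these transcripts without infection.

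Values are normalized counts, that is, read counts divided by a size factor of the library and rounded to whole numbers by the authors, with 1 read worth between 0.926 and 1.12. The libraries held 3726069 to 4427587 estimated reads, so a normalized count of 1 to 3 is a handful of reads and carries a large counting error, which is the only error that the depth describes. αKG replicate 3 stood apart from the other αKG libraries over all genes: its correlation with the DMSO libraries (Pearson, 0.977 to 0.98 across genes) exceeded that with αKG replicates 1 and 2 (0.962 and 0.963). Values are therefore given for each αKG library, and the fit without αKG replicate 3 is given beside the fit of all libraries for each named gene whose call it changes. Genes at 0 numbered 822 and 875 in αKG replicates 1 and 2 against 1528 to 1653 in the other 4 libraries. DMSO replicates 2 and 3 were as close as 2 draws of reads from 1 library when 13077 genes were pooled (mean chi-square 1.02, p = 0.103), but 16 single genes differed (Benjamini-Hochberg, adjusted p under 0.05), so they were kept as 2 samples, and the result with their mean as 1 sample is given where it changes a call. All 10 CM markers were listed. Nothing in the labels ties a library to its own litter, so p-values measure the spread between these libraries only.

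Promoter sequences are shown first, because the ISRE and the GAS are DNA elements. A regulator shared by the members was not tested. RefSeq promoter windows (GRCm38.p6, 250 bases before to 50 after a transcript start) existed for 32 of the 42 members. The ISRE was searched as GAAANNGAAA on either strand (TTTCNNTTTC on the other), and the GAS as TTCNNNGAA, which reads the same on both strands. ISRE letters were found in a window of 18 of these 32 members (56.2%), against 3.99% of all 27025 genes with a window. GAS letters were found for 9 of 32 members (28.1%), against 9.55% of all genes. *Isg15* held 3 overlapping ISRE matches, and *Bst2* was the gene where an ISRE match overlapped a GAS match. A match is a description of letters and not a site. Below are the 250 bases upstream of the start of 4 members with ISRE letters whose values were high in αKG replicates 1 and 2, and of *Ifit2*, which was high in every αKG library and has no ISRE letters in its windows. Capitals mark the ISRE letters. *Ifit1* lies at chr19:34640639-34640888 (plus strand), *Rsad2* at chr12:26456453-26456702 (minus strand), *Cxcl10* at chr5:92348890-92349139 (minus strand), *Igtp* at chr11:58199306-58199555 (plus strand) and *Ifit2* at chr19:34550444-34550693 (plus strand).
Ifit1: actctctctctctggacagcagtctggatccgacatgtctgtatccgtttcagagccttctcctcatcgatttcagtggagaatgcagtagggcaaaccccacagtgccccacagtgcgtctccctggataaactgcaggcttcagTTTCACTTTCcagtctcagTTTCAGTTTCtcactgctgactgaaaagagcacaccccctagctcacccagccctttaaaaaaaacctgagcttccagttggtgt
Rsad2: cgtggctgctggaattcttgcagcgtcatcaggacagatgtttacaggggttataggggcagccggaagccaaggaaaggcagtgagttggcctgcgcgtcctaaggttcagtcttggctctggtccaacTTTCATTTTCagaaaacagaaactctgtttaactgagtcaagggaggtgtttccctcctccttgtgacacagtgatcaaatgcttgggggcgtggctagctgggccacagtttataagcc
Cxcl10: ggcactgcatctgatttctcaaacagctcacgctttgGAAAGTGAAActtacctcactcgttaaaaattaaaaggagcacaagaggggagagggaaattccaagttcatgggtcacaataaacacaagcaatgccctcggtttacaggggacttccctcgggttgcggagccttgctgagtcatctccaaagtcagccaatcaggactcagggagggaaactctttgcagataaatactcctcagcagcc
Igtp: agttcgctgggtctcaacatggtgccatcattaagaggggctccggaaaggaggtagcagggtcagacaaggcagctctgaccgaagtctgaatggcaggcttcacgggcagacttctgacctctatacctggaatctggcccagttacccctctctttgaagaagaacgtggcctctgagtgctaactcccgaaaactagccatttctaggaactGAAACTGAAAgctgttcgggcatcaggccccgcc
Ifit2: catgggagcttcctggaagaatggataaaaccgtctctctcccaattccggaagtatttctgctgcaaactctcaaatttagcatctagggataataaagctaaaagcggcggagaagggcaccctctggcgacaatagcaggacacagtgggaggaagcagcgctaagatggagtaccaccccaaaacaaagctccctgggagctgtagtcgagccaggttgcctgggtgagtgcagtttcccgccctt

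**Figure D1:**
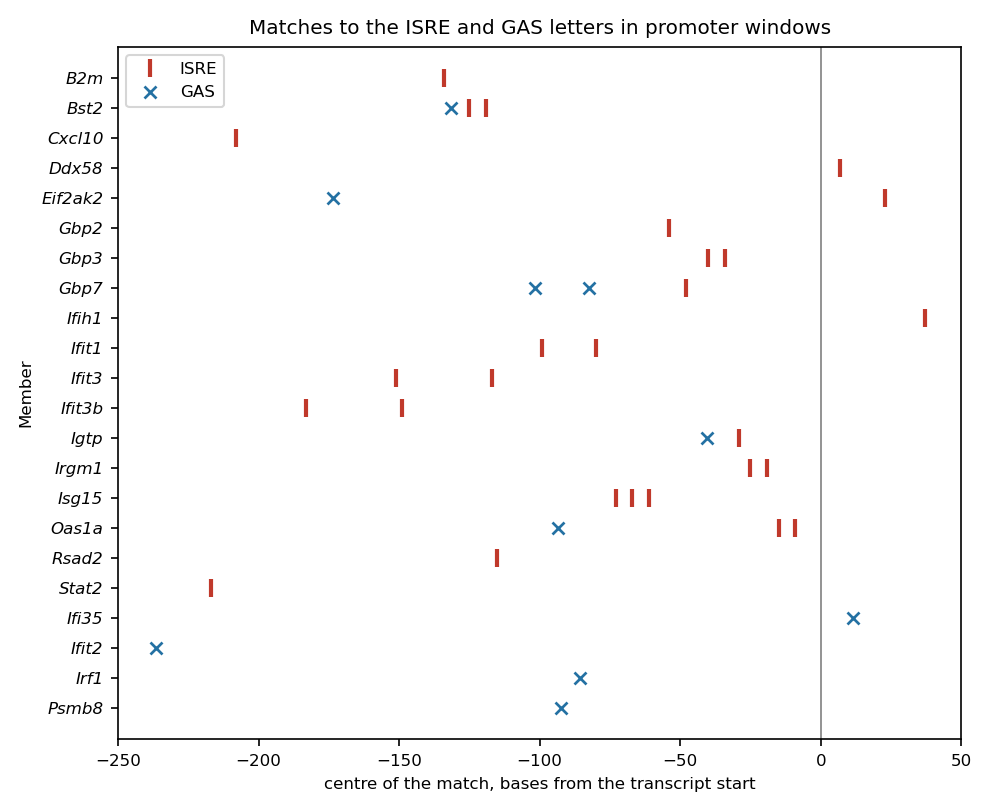
Positions of matches to the ISRE letters (red bars) and the GAS letters (blue crosses) in the promoter windows of the members that hold any; the horizontal axis is the distance in bases of the centre of a match from the transcript start (grey line), and each row is 1 member. ISRE matches of *Ifit1*, *Ifit3* and *Rsad2* lie before the start, and those of *Ddx58*, *Eif2ak2* and *Ifih1* after it.

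The *Ifit1* window holds 2 matches, at positions -104 to -95 and -85 to -76 from the start. Its neighbours *Ifit3* and *Ifit3b* hold 2 each, and *Ifit2*, in the same cluster on chromosome 19, holds none of the ISRE letters and 1 GAS match at -241 to -233. No match says only that these letters are not in this window. The 17 listed members with ISRE letters had a median difference from the DMSO mean of 0.47, 0.67 and -0.20 (log2(value + 1)) in αKG replicates 1, 2 and 3, and the 13 listed members whose windows lack them had medians of 0.61, 0.37 and -0.05. The medians of members with and without the letters had the same sign in each library. Both sets include members listed only through αKG libraries where they were high, such as *Rsad2* and *Oasl1*.

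In the comparison of αKG with DMSO over all 6 libraries, *Ifit2* rose and *Irf9* fell, and the other 37 listed members did not pass the test (limma, adjusted p under 0.05 over all genes). Of all genes, 2.83% were higher and 0.952% were lower in αKG, so 1 member in each direction is a share (2.56% each) near the background for rises and above it for falls, on a single gene. At an unadjusted p under 0.05, 6 members were higher (15.4%, against 15.7% of all genes) and 2 were lower (5.13%, against 12.4%). The count fell to 0 without DMSO replicate 2, DMSO replicate 3, αKG replicate 1 or αKG replicate 2, and was 1 without DMSO replicate 1. The share of all genes called in these fits is not given, and each uses 1 library fewer. A lost call there is therefore no result about the members. Without αKG replicate 3, 10 members were higher (25.6%) and 1 was lower (2.56%), against 19.3% and 17.9% of all genes. Members higher in that fit were *Ifit2*, *Ifit1*, *Ifit3*, *Oasl1*, *Rsad2*, *Rtp4*, *Ifi27*, *Parp9*, *Igtp* and *Cxcl10*, and *Irf9* was the lower one. Of these 11, 4 (*Oasl1*, *Rsad2*, *Rtp4* and *Cxcl10*) had a mean under 10, where a call can rest on values tied within a group. *Oasl1*, *Rsad2*, *Cxcl10*, *Isg15* and *Zbp1* had at most 1 in each DMSO library. As every listed gene reaches at least 2 somewhere, they are listed only through αKG libraries where they were high. The median difference of the 39 members was 0.22 over all libraries and 0.38 without αKG replicate 3, against 0.04 and 0.06 for all genes. Low values weigh on these medians, because the 13 members with a mean under 10 had a median of 0.86 (all 6657 genes of that kind, 0.33) and the 26 with a mean of at least 10 a median of 0.05 (13409 genes, -0.03). The median of 0.86 includes the members listed only through αKG libraries, so it is a description and no support.

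Taken by library, the members divided along the same line as the whole table. αKG replicate 1 was above all 3 DMSO libraries for 23 members (59%, against 40.3% of all genes) and below them for 6 (15.4%, against 34.3%). αKG replicate 2 was above for 25 (64.1%, against 39.1%) and below for 4 (10.3%, against 33.3%). αKG replicate 3 was above for 6 (15.4%, against 27.3%) and below for 15 (38.5%, against 27%). Members were thus more often high in the first and second αKG libraries than genes in general, and more often low in the third, as counts with no test. The members include *Oasl1*, *Rsad2*, *Cxcl10*, *Isg15* and *Zbp1*, which are listed only through αKG replicate 1 or 2. The shares above DMSO in these 2 libraries are therefore a description and no support. A total of 14 members were above all DMSO libraries in αKG replicates 1 and 2 and not in αKG replicate 3 (16.7% of all genes). These were 7 of the 13 members with a mean under 10 (53.8%, against 17.4%) and 7 of the 26 others (26.9%, against 16.3%). Of these low members, *Oasl1*, *Rsad2* and *Cxcl10* are listed only through αKG libraries where they were high, so that share is a description and no support. Groups did not overlap for 7 members: *Ifit2*, *Ifit3*, *Ifit3b*, *Parp9* and *Dtx3l* were above in αKG (12.8%, against 13.7% of all genes), and *Irf9* and *Trim25* were below (5.13%, against 14.6%). The DMSO libraries were not alike for these genes either. DMSO replicate 2 was the highest of them for 18 members (46.2%, against 28.1% of all genes), a pattern noticed after the values were seen.

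**Figure D2:**
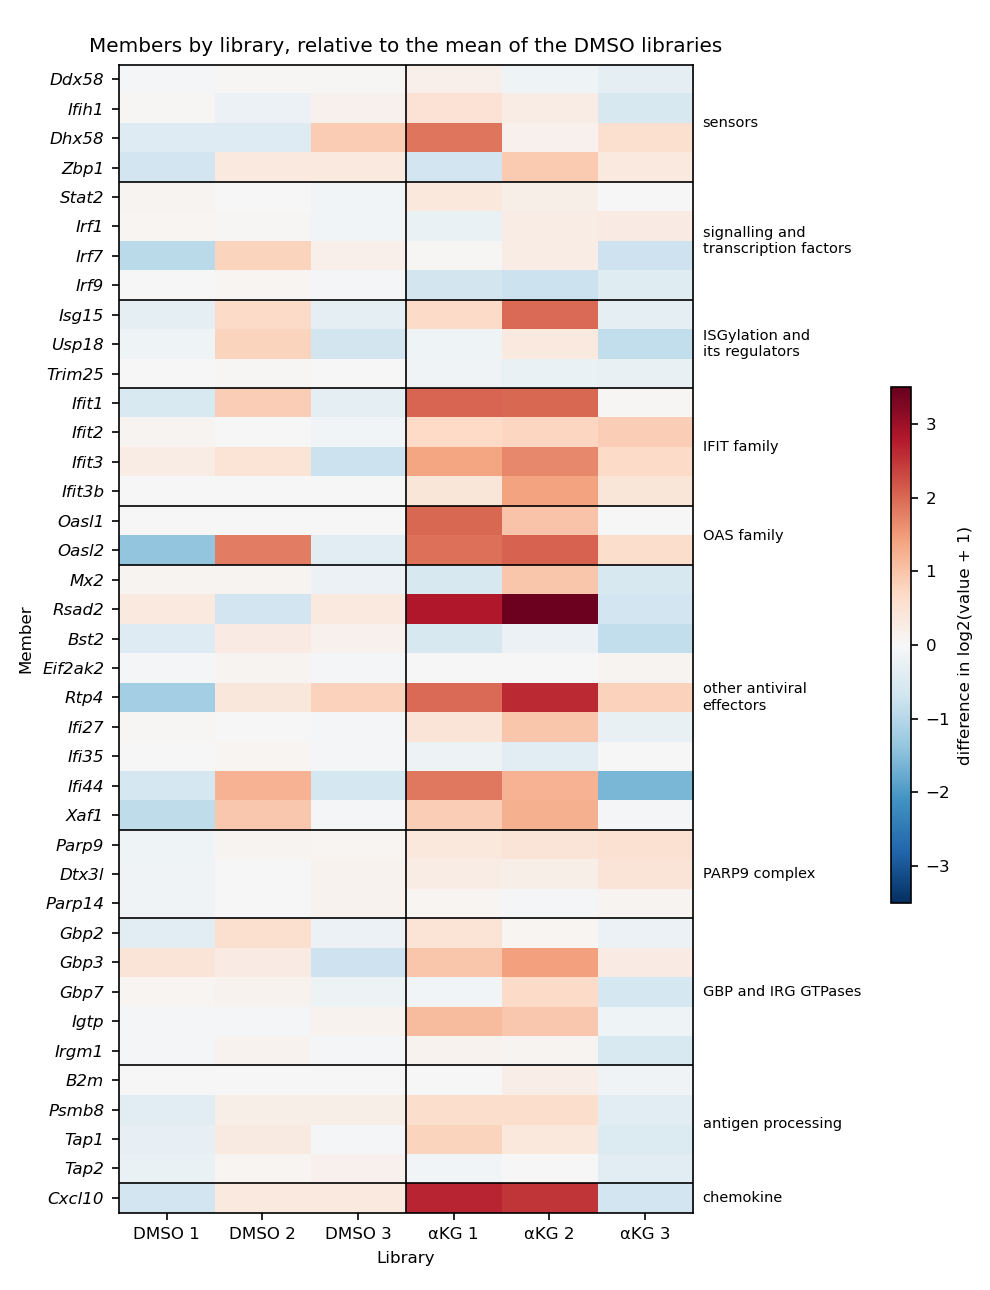
Difference of each listed member (rows, by role) from the mean of the 3 DMSO libraries in each library (columns), in log2(value + 1); red is higher and blue lower. αKG replicates 1 and 2 are mostly red for the IFIT and OAS families, *Rsad2*, *Rtp4* and *Cxcl10*, whereas αKG replicate 3 keeps *Ifit2*, *Parp9* and *Dtx3l* above the DMSO mean and most GTPase and antigen processing genes below it.

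The IFIT family comprises interferon-induced proteins with tetratricopeptide repeats, which bind viral RNA or proteins that handle it. Of its 4 members, 1 rose over all libraries (2.83% of all genes did), and 3 rose without αKG replicate 3 (75%, against 19.3% of all genes). *Ifit2* (chromosome 19, 34550694 to 34576419, GRCm38) had normalized counts of 271, 257 and 240 in DMSO replicates 1 to 3 and of 413, 430 and 468 in αKG replicates 1 to 3. Every αKG library stood above every DMSO library, αKG replicate 3 the highest. The means were 256 ± 15.5 and 437 ± 28.2 (SD, n = 3 each), a log2 difference of 0.77 ± 0.09 (SE, limma, adjusted p = 0.00663). That call was lost without DMSO replicate 2 (adjusted p = 0.132), DMSO replicate 3 (0.0961), αKG replicate 1 (0.203) or αKG replicate 2 (0.243), and with DMSO replicates 2 and 3 averaged (0.0688), with the difference between 0.72 and 0.81 in these fits. Without the variance trend its adjusted p was 0.102.

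*Ifit1*, whose product recognizes RNA caps that lack 2′-O methylation, had another distribution. Its normalized counts were 11, 31 and 13 with DMSO and 71, 70 and 17 with αKG. αKG replicates 1 and 2 were far above the DMSO libraries, and αKG replicate 3 lay between them. The difference was 1.37 ± 0.56 (adjusted p = 0.149) over all libraries and 2.03 ± 0.42 (adjusted p = 0.0125) without αKG replicate 3. *Ifit3*, a partner that stabilizes IFIT1 complexes, had 11, 13 and 5 with DMSO and 25, 31 and 15 with αKG. The groups did not overlap, and αKG replicate 3 was the lowest αKG library. Its difference was 1.24 ± 0.42 (adjusted p = 0.101), or 1.52 ± 0.41 (adjusted p = 0.0286) without αKG replicate 3. *Ifit3b* stayed between 2 and 7. Of the 75-base stretches of the *Ifit3* transcripts, 41.1% also occur in *Ifit3b*, and 35.7% the other way, and reads that fit several places were left out, so both values are uncertain.

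**Figure D3:**
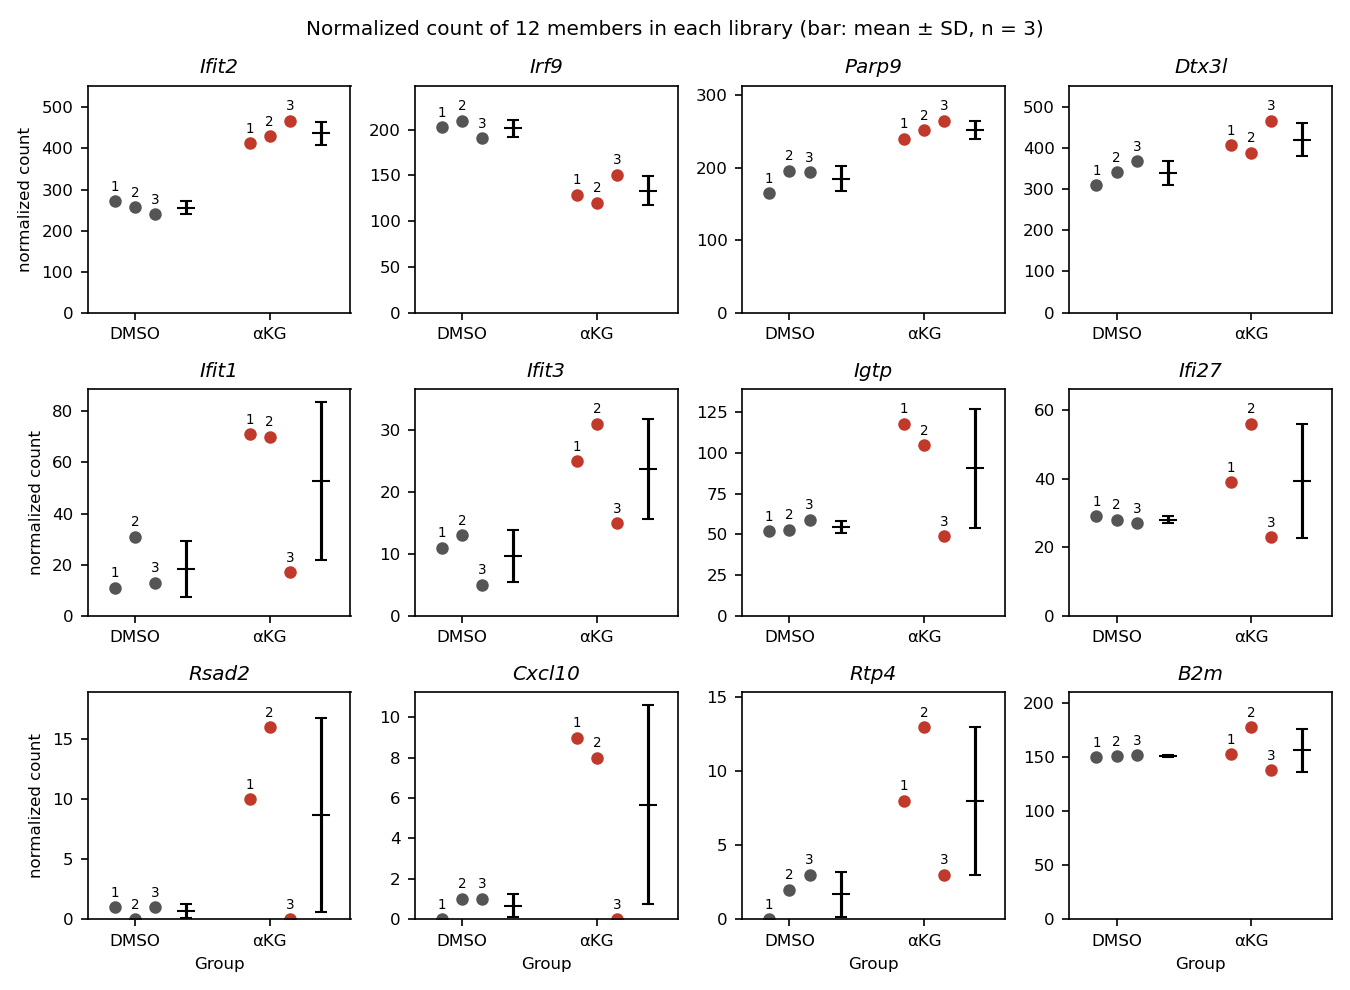
Normalized counts (vertical axes) of 12 members in each library, DMSO in grey and αKG in red, with the replicate number at each point and the mean ± SD (n = 3) beside each group. In the top row the αKG libraries lie together, with *Irf9* below DMSO, while for *Ifit1*, *Igtp*, *Rsad2* and *Cxcl10* the αKG replicate 3 point lies within or below the DMSO points.

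Among the signalling members, *Irf9*, the DNA-binding partner of STAT2, was the member that fell. It had normalized counts of 203, 210 and 191 with DMSO and of 129, 120 and 151 with αKG. Here αKG replicate 3 was nearest to DMSO but still below each DMSO library. The means were 201 ± 9.61 and 133 ± 15.9, a log2 difference of -0.60 ± 0.12 (adjusted p = 0.0374). The fit without αKG replicate 3 gave -0.69 ± 0.08 (adjusted p = 0.00197). Leaving out DMSO replicate 1, 2 or 3 ended the call (adjusted p = 0.149, 0.222 and 0.225), as did leaving out αKG replicate 1 (0.23) or 2 (0.255) and averaging DMSO replicates 2 and 3 (0.189). Without the variance trend the adjusted p of *Irf9* was 0.134.

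*Stat2*, its partner, had 176, 164 and 155 with DMSO and 213, 189 and 163 with αKG. αKG replicate 3 lay within the DMSO range, and the difference did not pass (0.18 ± 0.13, adjusted p = 0.357; 0.28 ± 0.09, adjusted p = 0.052 without αKG replicate 3). *Irf1*, a transcription factor induced strongly by interferon-γ, ranged from 60 to 68 with DMSO and from 55 to 79 with αKG (0.11 ± 0.19). *Irf7*, the amplifier of type I interferon genes, ranged from 5 to 19 and from 6 to 13. Neither differed beyond the spread of its libraries.

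Of the 4 cytosolic sensors, 0 passed (limma; 0 also at an unadjusted p under 0.05). *Ddx58*, which encodes the RNA sensor RIG-I, had 205, 219 and 220 with DMSO and 241, 194 and 171 with αKG. The αKG libraries lay on both sides of the DMSO libraries (-0.10 ± 0.13, adjusted p = 0.635). *Ifih1*, which encodes MDA5, a sensor of long double-stranded RNA, ranged from 51 to 65 with DMSO and had 83, 70 and 39 with αKG, so that αKG replicate 3 was below and the others were above. *Dhx58* (LGP2, a regulator of the RNA sensors) ranged from 1 to 9 and *Zbp1*, a sensor of Z-form nucleic acids, from 0 to 2 over all libraries.

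The ISG15 pathway attaches a ubiquitin-like protein to others. *Isg15* itself was nearly absent, with 0, 1 and 0 with DMSO and 1, 4 and 0 with αKG, and *Usp18*, which removes ISG15 and dampens receptor signalling, ranged from 5 to 18. *Trim25*, a ubiquitin ligase that acts on RIG-I, was well expressed, with 283, 294 and 283 with DMSO and 261, 246 and 237 with αKG. All αKG libraries were below all DMSO libraries, by a small step that did not pass (-0.21 ± 0.09, adjusted p = 0.16).

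Low counts marked the OAS family, whose enzymes make 2′-5′ oligoadenylates that activate RNase L. *Oas1a* and *Oas2* were not listed. *Oasl1*, an OAS-like protein without enzyme activity, was 0 in each DMSO library and 3, 1 and 0 with αKG, at or under the 3 counts that an absence allows, so no fold is given. It passed without αKG replicate 3 (adjusted p = 0.0488), with DMSO values tied at 0, so that call rests on 4 normalized counts. *Oasl2* had 0, 8 and 1 with DMSO and 9, 10 and 3 with αKG. DMSO replicate 2 was close to the αKG libraries there, and the difference did not pass (1.54 ± 0.78, adjusted p = 0.227). It was 0.84 without DMSO replicate 1 and 2.43 without DMSO replicate 2.

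Of the 9 other antiviral effectors, 0 passed over all libraries (limma). *Rtp4* alone was higher at an unadjusted p under 0.05 (11.1%, against 15.7% of all genes). Without αKG replicate 3, *Rsad2*, *Rtp4* and *Ifi27* passed as higher (3 of 9, 33.3%, against 19.3% of all genes). That share includes *Rsad2*, which is listed only through αKG libraries where it was high. *Rsad2*, which encodes viperin, a maker of a chain-terminating nucleotide, had 1, 0 and 1 with DMSO and 10, 16 and 0 with αKG. αKG replicates 1 and 2 held it at counts unseen with DMSO, and αKG replicate 3 had none (1.85 ± 0.95, adjusted p = 0.23; 3.11 ± 0.48, adjusted p = 0.00476 without it). *Rtp4*, a receptor-transporting protein that also binds viral RNA, had 0, 2 and 3 with DMSO and 8, 13 and 3 with αKG (1.80 ± 0.66, adjusted p = 0.121; 2.29 ± 0.65, adjusted p = 0.0354 without αKG replicate 3). *Ifi27*, a small protein of the mitochondrial and nuclear membranes, had 29, 28 and 27 with DMSO and 39, 56 and 23 with αKG (0.39 ± 0.31, adjusted p = 0.432; 0.72 ± 0.20, adjusted p = 0.0322 without αKG replicate 3), and its difference was 0.096 without αKG replicate 2. In each of these genes αKG replicate 3 lay within or below the DMSO libraries. *Eif2ak2*, which encodes PKR, the kinase that stops translation upon double-stranded RNA, had 573, 644 and 582 with DMSO and 598, 610 and 639 with αKG. These groups overlapped throughout (0.04 ± 0.08, adjusted p = 0.755). The remaining effectors *Mx2*, *Bst2*, *Ifi35*, *Ifi44* and *Xaf1* ranged from 0 to 60 over all libraries and did not pass in either fit.

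*Parp9* and *Dtx3l* encode an ADP-ribosyltransferase and a ubiquitin ligase that form 1 complex and lie next to each other on chromosome 16. *Parp9* had 165, 196 and 194 with DMSO and 240, 252 and 265 with αKG. All αKG libraries were above all DMSO libraries, and αKG replicate 3 was the highest (0.45 ± 0.11, adjusted p = 0.0507; 0.41 ± 0.10, adjusted p = 0.0177 without it). *Dtx3l* had 309, 341 and 367 with DMSO and 406, 388 and 466 with αKG, likewise without overlap (0.31 ± 0.10, adjusted p = 0.098). *Parp14*, a further ADP-ribosyltransferase of this neighbourhood, ranged from 151 to 181 and from 159 to 176 (0.04 ± 0.11, adjusted p = 0.857). Exons of *Parp9* and *Dtx3l* overlap by 9.4% and 8% of their bases, and reads of several genes were left out.

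Interferon-inducible GTPases of the GBP and IRG families attack the membranes around intracellular pathogens. *Igtp* (also called Irgm3) had 52, 53 and 59 with DMSO and 118, 105 and 49 with αKG. The mean of αKG replicates 1 and 2 was 2.04 times the DMSO mean, and αKG replicate 3 was under each DMSO library (0.63 ± 0.29, adjusted p = 0.195; 1.01 ± 0.12, adjusted p = 0.00208 without it). *Irgm1*, a regulator of the other IRG proteins, had 102, 114 and 100 with DMSO and 115, 113 and 73 with αKG (-0.10 ± 0.19, adjusted p = 0.758). Again αKG replicate 3 was the lowest of all libraries. *Gbp2*, *Gbp3* and *Gbp7* ranged from 3 to 28 and did not pass in either fit.

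Of the 4 listed antigen processing genes, 0 passed (limma; 0 also at an unadjusted p under 0.05). *B2m*, the light chain of MHC class I, had 150, 151 and 152 with DMSO and 153, 178 and 138 with αKG. The DMSO libraries were nearly equal, and the αKG libraries spread around them (0.04 ± 0.12, adjusted p = 0.852). *Tap1*, a subunit of the peptide transporter, had 46, 71 and 55 with DMSO and 97, 73 and 40 with αKG, with αKG replicate 3 under the DMSO range. *Tap2*, its partner, ranged from 35 to 46 and from 31 to 41, and *Psmb8*, an immunoproteasome subunit, from 1 to 3 over all libraries. The immunoproteasome subunit gene *Psmb9* was not listed.

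*Cxcl10* encodes a chemokine that attracts activated T cells. Its normalized counts were 0, 1 and 1 with DMSO and 9, 8 and 0 with αKG. It was thus seen almost only in αKG replicates 1 and 2 (1.497 ± 0.849, adjusted p = 0.273; 2.58 ± 0.46, adjusted p = 0.00763 without αKG replicate 3).

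**Figure D4:**
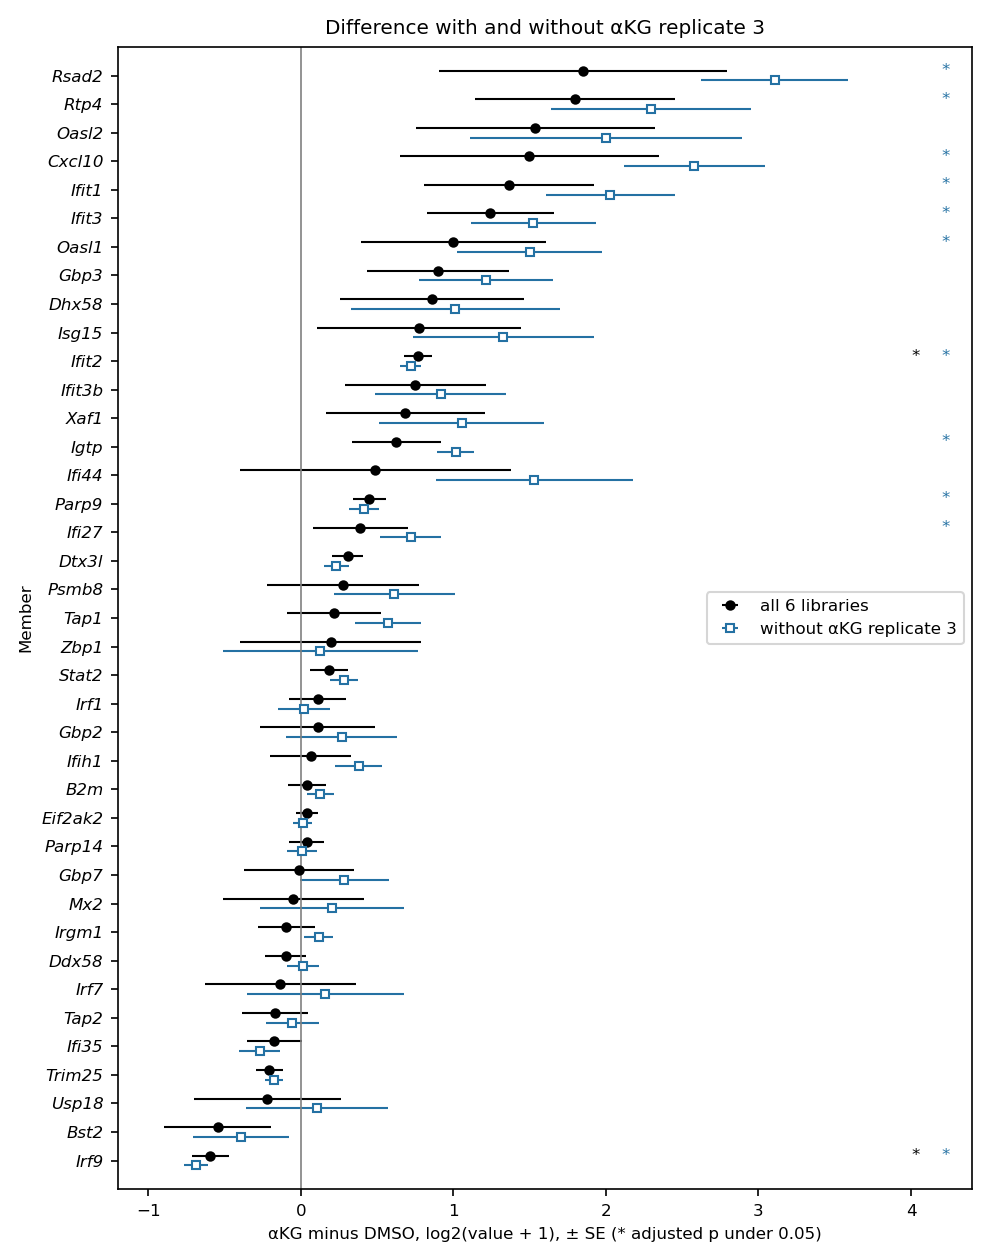
Difference between αKG and DMSO (horizontal axis, log2(value + 1), ± SE) of each listed member over all 6 libraries (black) and without αKG replicate 3 (blue squares); stars of the same colour mark an adjusted p under 0.05. *Ifit2*, *Parp9*, *Dtx3l* and *Irf9* keep nearly the same value in both fits, while *Rsad2*, *Cxcl10* and *Ifit1* move up without αKG replicate 3.

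Per kilobase of exon, which allows levels of genes to be compared, *B2m* was the highest member (normalized count per kilobase, mean of 6 libraries, 179), followed by *Eif2ak2* (119), *Ifit2* (88.2) and *Dtx3l* (66.3). Members seen mostly in αKG replicates 1 and 2 were at the other end, with 1.41 for *Cxcl10*, 1.08 for *Rsad2* and 0.256 for *Oasl1*. The members summed over a library gave 3036, 3318 and 3144 normalized counts with DMSO and 3678, 3654 and 3372 with αKG. The members with a mean under 10 summed to 24, 41 and 27 with DMSO and to 83, 108 and 27 with αKG, so that αKG replicate 3 was level with DMSO there. That sum includes members listed only through αKG libraries, such as *Rsad2* and *Cxcl10*.

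Upstream of the members, the list of interferon ligands, receptors and proximal signalling held 29 genes, of which 22 were listed. The ligand genes *Ifna4*, *Ifnb1*, *Ifng*, *Ifnl2*, *Ifnl3*, *Ifnk* and *Ifne* were not listed in the table. Of those listed, 0 rose and 1 fell (limma over all libraries), where 2.83% of all genes rose and 0.952% fell. Their median difference was -0.18, against 0.04 for all genes and -0.03 for all genes with a mean of at least 10. Without αKG replicate 3, 0 rose and 9 fell (0% and 40.9%, against 19.3% and 17.9% of all genes). At an unadjusted p under 0.05, 0 were higher and 6 were lower (27.3%, against 12.4%). *Stat3*, the factor of interleukin-6 type cytokines, had 1214, 1278 and 1312 with DMSO and 1022, 991 and 1039 with αKG (-0.32 ± 0.06, adjusted p = 0.0326). All αKG libraries were below all DMSO libraries by similar steps. *Jak1*, the kinase shared by interferon receptors, had 1011, 988 and 1064 with DMSO and 887, 893 and 950 with αKG and passed without αKG replicate 3 but not over all libraries (-0.17 ± 0.06, adjusted p = 0.133; -0.20 ± 0.04, adjusted p = 0.0169 without it), and *Ptpn11*, the phosphatase SHP2, overlapped between the groups (0.01 ± 0.07).

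The list of further interferon-stimulated genes held 75 genes, of which 60 were listed. Over all libraries, 1 rose and 1 fell, with a median of 0.06, where 2.83% of all genes rose and 0.952% fell. Without αKG replicate 3, 9 rose and 7 fell (15% and 11.7%, under the 19.3% and 17.9% of all genes), with a median of 0.31. *Herc6*, the mouse ligase that conjugates ISG15, rose from 41, 42 and 30 with DMSO to 114, 100 and 65 with αKG (1.26 ± 0.24, adjusted p = 0.0338). *Il15*, a cytokine for natural killer and memory T cells, fell from 116, 100 and 126 to 49, 53 and 84 (-0.90 ± 0.21, adjusted p = 0.0499). For both, αKG replicate 3 was the αKG library nearest to DMSO. The 3 genes of the list with the highest mean normalized count, not divided by length, were *Rnf213*, *Znfx1* and *Slfn9*, and none of them passed over all libraries (0.36 ± 0.13, -0.39 ± 0.11 and 0.71 ± 0.26). Without αKG replicate 3, *Rnf213* (0.53 ± 0.07, adjusted p = 0.003) and *Znfx1* (-0.53 ± 0.05, adjusted p = 0.00102) passed, in opposite directions.

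None of the other pathway lists had a call over all libraries (limma). In all, 137 of 170 pathway genes outside the members were listed. Of these, 1 rose and 2 fell, where 2.83% of all genes rose and 0.952% fell. At an unadjusted p under 0.05, 13 were higher and 18 were lower (9.49% and 13.1%, against 15.7% and 12.4% of all genes). Without DMSO replicate 1, 2 or 3 or αKG replicate 1 or 2, 0 of these 137 passed. The share of all genes called in those fits is not given, and each uses 1 library fewer, so this is no result about these genes. Without αKG replicate 3, 15 rose and 29 fell (10.9% and 21.2%, against 19.3% and 17.9% of all genes). The adaptor, MHC class I, proteasome and MHC class II lists had 1, 1, 0 and 1 genes higher at an unadjusted p under 0.05. These were 5.88%, 5.26%, 0% and 20% of their listed genes, against 15.7% of all genes. In the same order, 2, 1, 5 and 0 were lower (11.8%, 5.26%, 35.7% and 0%, against 12.4% of all genes). Nucleic acid sensing adaptors (17 of 20 listed) had a median of 0.04, and their genes with the highest normalized counts, *Traf3*, *Tbk1* and *Mavs*, had differences of 0.04, -0.16 and -0.43. *Mavs*, the adaptor of RIG-I, passed without αKG replicate 3 (-0.58 ± 0.05, adjusted p = 0.00108). In that fit 1 adaptor gene was higher and 3 were lower (5.88% and 17.6%, against 19.3% and 17.9% of all genes). MHC class I presentation (19 of 20 listed) had a median of 0.05. *Canx*, *Calr* and *Pdia3*, chaperones of the endoplasmic reticulum, differed by 0.09, 0.05 and 0.07. Without αKG replicate 3, 3 genes of this list passed as higher and 3 as lower (15.8% each, against 19.3% and 17.9% of all genes). *Canx* and *Calr* were among the higher ones (0.14 and 0.15, adjusted p = 0.0305 and 0.0457). All 14 genes of the constitutive proteasome were listed, and each had a difference below 0, with a median of -0.25, while 0 passed over all libraries and 6 passed without αKG replicate 3 (42.9%, against 17.9% of all genes that were lower). *Psma4*, *Psmb1* and *Psma6* had the highest normalized counts, not divided by length (differences of -0.07, -0.10 and -0.24), and *Psma6* passed without αKG replicate 3 (-0.30, adjusted p = 0.0158). MHC class II presentation was represented by 5 of 12 genes with a median of -0.33. Of those with the highest normalized counts, *Ifi30* differed by 0.21, *H2-DMa* by -0.67 and *H2-Ab1* by 1.96, the last with 1, 0 and 1 with DMSO and 8, 12 and 1 with αKG. These 3 passed without αKG replicate 3 (0.39, -0.86 and 2.77, adjusted p = 0.0214, 0.0425 and 0.00669). They are 2 higher and 1 lower of the 5 listed (40% and 20%, against 19.3% and 17.9% of all genes). With at most 1 in each DMSO library, *H2-Ab1* is listed only through αKG libraries where it was high. Its call is therefore a description and no support.

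Epicardial, fibroblast and CM markers summed highest in αKG replicates 1 and 2. Endothelial and mural sums differed from DMSO in every αKG library instead. The 10 epicardial markers, all listed, summed to 527 to 586 normalized counts with DMSO and to 1320, 1288 and 532 with αKG, and 10 of 10 were above all DMSO libraries in αKG replicates 1 and 2 but 3 of 10 in αKG replicate 3. The 10 fibroblast markers summed to 3363 to 3593 with DMSO and to 7478, 7325 and 3432 with αKG. This is the library pattern of *Ifit1*, *Rsad2*, *Igtp* and *Cxcl10*, and not that of *Ifit2*, *Parp9* or *Irf9*. Endothelial markers summed to 2093 to 2219 with DMSO and to 1554, 1430 and 1453 with αKG, lower in every αKG library. Over all libraries, 8 of 10 passed as lower (0.952% of all genes did), *Pecam1* with -1.10 ± 0.14 among them. The other 2, *Flt1* and *Tek*, were higher and passed as such without αKG replicate 3. Mural markers summed to 4306 to 4415 and to 5027, 4613 and 4707, with 2 of 10 passing as higher (2.83% of all genes did). Against that sum, 3 of the 10 were lower, 2 of them at an unadjusted p under 0.05. CM markers summed to 75431 to 78128 with DMSO and to 108330, 111545 and 79989 with αKG, most of it *Ttn*. Against that sum, 3 of the 10 were lower over all libraries, and 7 were higher. Their median difference from the DMSO mean was 0.20, 0.11 and -0.02 in αKG replicates 1, 2 and 3. Without αKG replicate 3, 4 passed as higher and 1 as lower (40% and 10%, against 19.3% and 17.9% of all genes). The part of these cell types in the values of the members was not tested.

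Immune cells left little trace. Of 12 macrophage markers 4 were listed, with sums of 22 to 35 with DMSO and 24 to 41 with αKG, and *Adgre1*, *Itgam*, *Ptprc* and *C1qa* were not listed. None of the 10 lymphocyte markers was listed, and of 6 plasmacytoid dendritic cell markers *Cox6a2* was listed, which heart muscle also expresses.

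**Figure D5:**
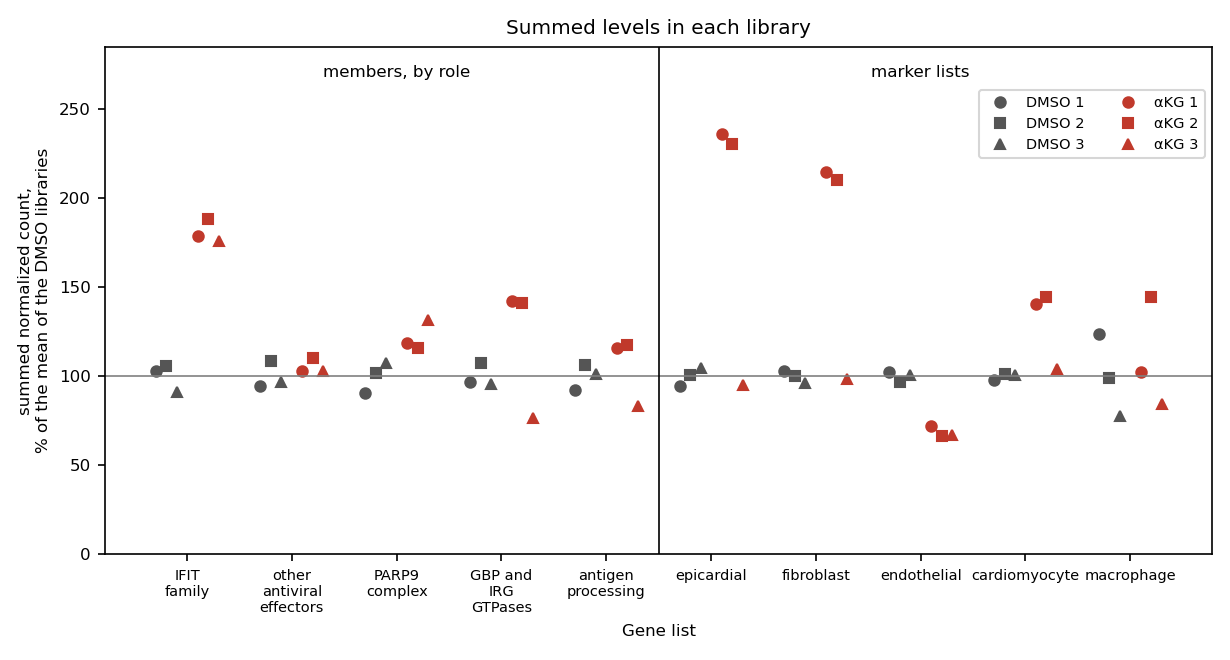
Summed normalized count of 5 member groups and 5 marker lists in each library, as a percentage of the mean of the 3 DMSO libraries (grey, DMSO; red, αKG; symbol shape, replicate number). The IFIT family lies at 176 to 188% in all αKG libraries because *Ifit2* dominates the sum, the GTPases at 142, 141 and 76.7%, and the epicardial markers at 236, 230 and 95.2%.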

How the data were processed

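Total RNA of 6 CM cultures (3 DMSO, 3 αKG) was sequenced as single reads of 75 bases from a stranded library kit. Per the labels, the authors used Trimmomatic 0.39, STAR 2.7.10a, featureCounts 2.0.3 and DESeq2 1.30.1 with mm10 (GRCm38). The deposited values, named a score here, are read counts scaled by the authors with size factors and then rounded, so they are not raw counts. Reads of several genes or places were left out by the authors, and the use of strand in counting is not stated, so overlapping genes are uncertain. Every listed gene reaches at least 2 somewhere in the table. Positions of 19856 of 20066 genes were identical in GENCODE M21, which gave exon lengths.

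The value of 1 read per library was estimated from the steps of the low values, and division by it gave estimated reads. On simulated libraries, this estimate recovered 17 of 20 random factors within 0.2%, with a largest error of 2.27%. Estimated reads are therefore approximate. The test was limma 3.58.1 (R 4.3.3; Python 3.11.15) with a variance trend on log2(value + 1), which understates the change of low genes, over all 6 libraries with treatment as the only term, and Benjamini-Hochberg adjustment over all genes. It was tested on simulated data, in which low genes tied within groups could be called falsely; of the 759 called genes, 30 had a mean under 10, and neither member called over all libraries did, while 4 of the 11 called without αKG replicate 3 did. SE is that of the limma fit. A promoter window is that of RefSeq for GRCm38.p6.

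Members, lists and roles were chosen with earlier results of these data known. Members are given with every library's value if called, called without αKG replicate 3, among the 10 highest, or the highest of their role; of other lists, called genes (at most 5) and the 3 highest are named. *Ifih1*, *Tap1*, *Isg15* and single marker genes, outside that rule, were named after their values were seen. *Mb21d1* and *Tmem173* are listed as *Cgas* and *Sting1*.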

Additional observations from a re-analysis of the deposited data

How the results depend on the processing

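The number of members called (2 over all libraries) was 0 without the variance trend, 0 with the replicate block, 0 with DMSO replicates 2 and 3 averaged, 8 at an unadjusted p under 0.05, and between 0 and 11 when 1 library was left out, with 11 without αKG replicate 3, 1 without DMSO replicate 1 and 0 without any other. The number of pathway genes outside the members (3) was 0 without the variance trend, 0 with the replicate block, 12 with the replicate block and the GC and exon length correction together, 1 with limma-voom on estimated reads, 0 with DMSO replicates 2 and 3 averaged, 31 at an unadjusted p under 0.05, and between 0 and 44 when 1 library was left out, with 44 without αKG replicate 3. The cause was not tested, except that averaging and leaving out use fewer samples. The other scalings, pseudocount and filter kept both numbers within 1.5 times. Of 315 further values of 20 named members under 16 settings, 279 kept their direction and side of the threshold, 15 lost a call (*Ifit2* and *Irf9*), 11 gained one and 10 changed sign, each in a member without a call. When 1 library was left out, *Ddx58* ranged from -0.24 to 0.011 and *Irgm1* from -0.21 to 0.12 (above 0 without αKG replicate 3), *Parp14* from -0.025 (without DMSO replicate 1) to 0.11, and *B2m* from -0.055 (without αKG replicate 2) to 0.13. Under the GC and exon length correction, blocked or not, *Eif2ak2* was -0.15, *Parp14* -0.13 and *B2m* -0.28. *Ifit2* shrank from 0.77 to 0.52 there and kept its call (adjusted p = 0.0484, or 0.0367 with the block, limma). That correction moved the median of all genes from 0.04 to -0.11. *Parp9* passed with quantile normalization (adjusted p = 0.0449), the filter of 10 (0.0461) and without αKG replicate 3. Same-numbered libraries share only a number (their deviations from the group means correlated by -0.07, 0.14 and 0.00192 over genes), and the replicate block ended the calls of *Ifit2* (adjusted p = 0.0549) and *Irf9* (0.0983) and changed no other call of a named member. A count model beside these fits was not run, since the values are not raw counts. Members with a mean under 10, 13 of 39, rest on a few reads per library, where a difference can be undetectable at this depth.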
